A study of Mus musculus with 6 samples.

Results

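Small nucleolar RNAs (snoRNAs) were read in the heads of mouse embryos with and without Tasp1. The members were all probe sets of the array whose single gene symbol in the platform annotation begins with Snord or Snora followed by a digit, with no condition on brightness. There were 56 such probe sets among 21789 with a single symbol, for 51 snoRNA genes of 19938 genes in all. Of these, 33 probe sets (31 genes) carried names of the C/D box class (Snord) and 23 (20 genes) names of the H/ACA box class (Snora).

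The study compared the dissected prosencephalon and mesencephalon of 3 wild type (WT) and 3 Tasp1-/- (KO) embryos, all at stage E10.5, on the C57Bl6 background and from crosses of Tasp1+/- parents. The labels call the embryos biological replicates, and each gave 1 array, from 100 ng of total RNA. Tasp1 encodes Taspase1, a protease that cleaves nuclear proteins, and the question was which transcripts depend on it during development. Values are log2 signals per probe set as deposited. Differences are KO minus WT with the standard error (SE) of a limma fit over all 21789 probe sets, and p-values were adjusted over all of these.

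snoRNAs are short nuclear RNAs that guide the chemical marking of ribosomal and spliceosomal RNA. C/D box RNAs carry the proteins fibrillarin, NOP56, NOP58 and SNU13 and direct methylation of the ribose, while H/ACA box RNAs carry dyskerin, NHP2, NOP10 and GAR1 and direct the change of uridine to pseudouridine. A few, such as Snora73a and Snora73b (U17) and Snord118 (U8), are needed for the cleavage of the ribosomal RNA precursor. Most mammalian snoRNAs are cut out of introns of host genes, many of which encode ribosomal proteins or noncoding transcripts with little other product, so a head's snoRNA level depends on transcription of the host and on the stability of the particle.

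In the gene table of assembly GRCm38.p6, 50 of the 51 snoRNA genes lay inside a longer gene, and Snord118 alone did not. The hosts numbered 40. For 37 snoRNAs the host was a protein-coding gene, for 21 of them a ribosomal protein gene, and for 13 it was a long noncoding RNA gene. The C/D box genes were 45 to 148 bases long (median 68) and the H/ACA box genes 61 to 205 (median 125). Only Snord57, inside Nop56, lay on chromosome 2, as Tasp1 does.

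The hosts of 5 of the 6 members with an unadjusted p under 0.05 are shown first (that of Snord58b is not shown here), by the sequence around their annotated RefSeq start in GRCm38.p6, since a snoRNA inside an intron has no promoter of its own. Host genes of snoRNAs are known for a terminal pyrimidine start, a C followed by pyrimidines. Each line gives the 50 bases before and the 50 bases from the start, 5′ to 3′ on the gene's strand. Capitals mark the start base, extended to 5 bases where it is a C followed by 4 bases that are each C or T.
Gm36220, host of Snord104, chr11:106500865-106500964, plus strand: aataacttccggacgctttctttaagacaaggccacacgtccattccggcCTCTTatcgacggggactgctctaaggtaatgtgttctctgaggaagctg
Ipo7, host of Snora23, chr7:110018265-110018364, plus strand: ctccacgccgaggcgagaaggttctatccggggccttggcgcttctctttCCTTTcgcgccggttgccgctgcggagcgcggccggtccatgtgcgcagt
Tcp1, host of Snora20, chr17:12916279-12916378, plus strand: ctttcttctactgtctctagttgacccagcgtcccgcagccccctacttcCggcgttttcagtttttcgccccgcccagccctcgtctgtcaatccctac
Snhg3, host of Snora73a and Snora73b, chr4:132353637-132353736, minus strand: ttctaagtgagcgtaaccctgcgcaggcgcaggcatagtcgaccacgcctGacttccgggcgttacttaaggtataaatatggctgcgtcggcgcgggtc
The run of 5 was searched on the gene's strand at the annotated start only. It stood in the windows of Gm36220 and Ipo7 and not in those of Tcp1 and Snhg3. Of the 32 windows found for the members' hosts (30 of 40 genes), 6 held it (18.8%), against 823 of 32851 windows of all genes (2.51%). These are matches of letters only. Of the 40 hosts, 16 were ribosomal protein genes, and the shares were not split by kind of host.

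The 6 arrays were alike, with correlations between 0.996 and 0.998 across probe sets. WT 1 stood apart, with a score of -16.9 on principal component 1 against -5.15 to 10.1 for the other heads. WT 2 alone had a high Xist signal (12.3 against at most 5.24 elsewhere) and low Y-linked signals, the pattern of a female, while the other 5 heads had that of males. The Tasp1 probe set, whose place relative to the deletion the sources used here do not give, read 8.10, 8.45 and 8.49 in WT and 8.63, 8.63 and 8.50 in KO heads, so it was not lower in KO heads and does not check the labels; genotypes here are those of the labels. The 6 head markers Otx2, Six3, Emx2, Lhx2, En1 and Pax6 all lay above the brightness cut used below, while 1 of 4 posterior Hox genes was. Of the marker lists, the 4 neuron genes had a median difference of -0.20, with mean signals of 9.38 to 9.65 in WT and 9.05 to 9.49 in KO heads, and the 3 erythroid genes measured one of -0.16 (10.89 to 11.03 and 10.78 to 10.88). Medians were -0.08 for the head markers, -0.07 for the Hox genes and for macrophages, -0.09 for surface ectoderm, 0.01 for endothelium and 0.0016 for cranial mesenchyme, 3 to 6 genes each. Single markers were lower without overlap: Neurod1 of neurons (-0.46, SE 0.11), Lhx2 (-0.33, SE 0.06) and Emx2 (-0.32, SE 0.09) of the head markers, C1qb of macrophages (-0.30, SE 0.08), Hbb-bh1 of erythroid cells (-0.21, SE 0.05) and Epcam of surface ectoderm (-0.11, SE 0.06). Of all probe sets, 6.76% were lower without overlap. In the same lists, 2 of the 6 head markers were higher, En1 (0.08, SE 0.09) and Otx2 (0.04, SE 0.08). So was 1 of the 3 macrophage genes, Cx3cr1 (0.11, SE 0.07). The neuron, erythroid and surface ectoderm genes measured were all lower, Hba-x of erythroid cells by only -0.02 (SE 0.04). No marker passed adjustment in limma (lowest adjusted p 0.296, for Lhx2). What part such shifts have in the results was not tested, and in bulk tissue fewer cells of a type and less RNA per cell cannot be told apart.

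Among the snoRNAs, 0 of 56 probe sets passed an adjusted p of 0.05 in limma, as did 0 of all 21789 (0%). At an unadjusted p under 0.05, 3 members were lower in KO heads, where 3.89% of all probe sets were, and 3 were higher, where 2.32% were. These are 5.36% of the members in each direction. Every KO head lay below every WT head for 1 member (1.79%, against 6.76% of all probe sets) and above for 3 (5.36%, against 4.15%). With counts this small, the members' shares were not set apart from the background. The counts moved with single heads, and so did those of all probe sets. Without WT 1, 9 members were lower and 1 higher at an unadjusted p under 0.05, where 2.76% and 2.06% of all probe sets were. Without WT 3, 2 were lower and 10 higher (5.4% and 3.53% of all), and without KO 2, 4 were lower and 1 higher (2.06% and 1.27%). Without WT 2 the counts were 3 and 5 (3.54% and 2.12%), without KO 3 also 3 and 5 (4.17% and 3.16%), and without KO 1 they were 2 and 2 (3.9% and 1.8%). With 1 head fewer, groups that do not overlap are more frequent by construction: 10.4% to 15.3% of all probe sets then lay wholly below and 6.54% to 11.3% wholly above, against 2 to 9 and 3 to 9 members.

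The members' differences spread around zero. Of the 56, 27 were lower and 29 higher in KO heads, with a median of 0.0060, where all probe sets had a median of -0.01. The differences ran from -0.34 to 0.30, that is from 0.79 to 1.23 times the WT signal. The members' median absolute difference was 0.10, where that of all probe sets was 0.05, and their median SE was 0.094, where that of all was 0.074. The 95% confidence intervals of all 56 ratios lay between 0.688 and 1.499, so a change of more than 1.5-fold in signal lay outside the interval for each of them.

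**Figure D1:**
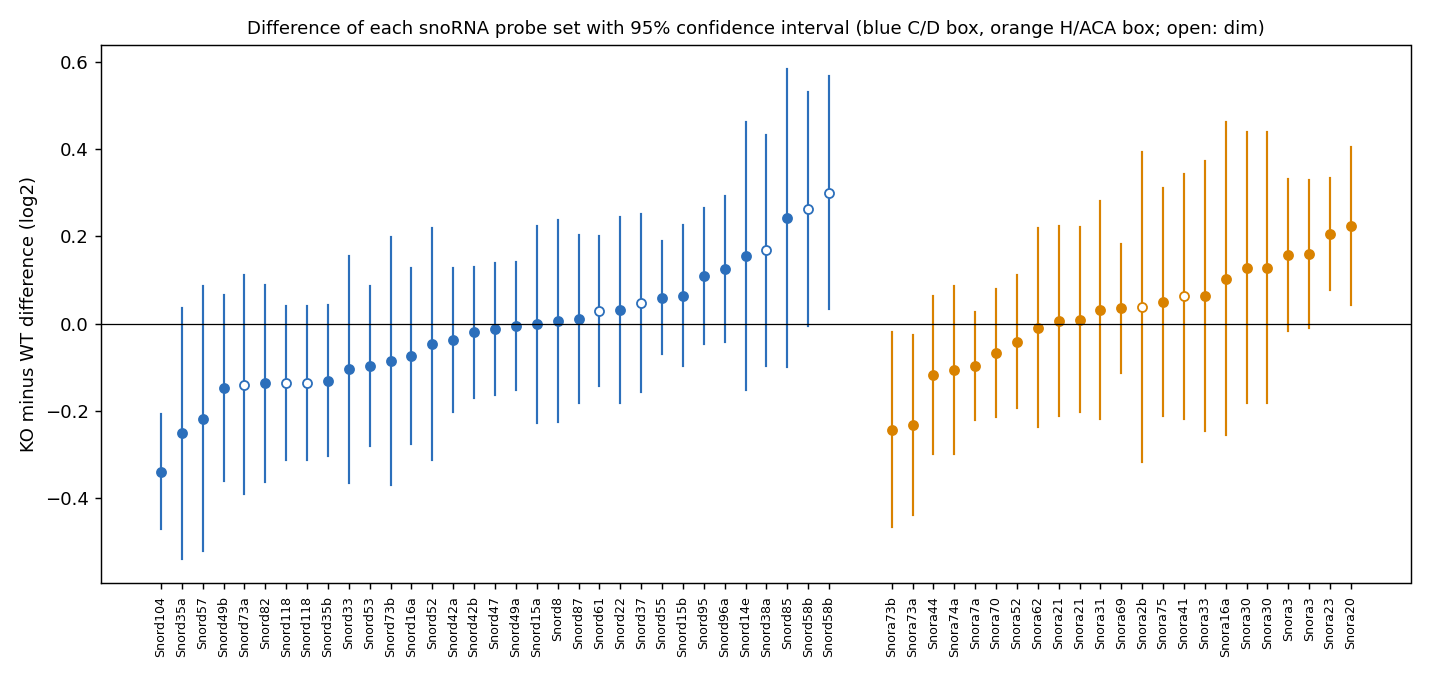
Each point is the KO minus WT difference (log2, vertical axis) of 1 snoRNA probe set and each line its 95% confidence interval from the limma fit, for 33 C/D box (blue) and 23 H/ACA box (orange) probe sets in order of size; open points lie below the brightness cut of 7.06. The intervals of 6 probe sets leave out zero, 3 on each side, and the points run from -0.34 to 0.30.

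Snord104, a C/D box RNA that guides methylation of ribosomal RNA, had the smallest p of the members. It is 73 bases long and begins 76 bases downstream of the start of its noncoding host Gm36220, at chr11:106500991-106501063. Its signal was 11.30, 11.43 and 11.26 in WT heads and 11.01, 11.06 and 10.90 in KO heads. Every KO head lay below every WT head, and the lowest WT head stood clear of the highest KO head. WT heads averaged 11.33 ± 0.09 and KO heads 10.99 ± 0.09 (SD, n = 3 each), which gave a difference of -0.34 (SE 0.06), or 0.79 times. It did not pass adjustment (limma, unadjusted p 1.7e-04, adjusted p = 0.207). An exact two-sided permutation test gave p = 0.1, which is the lowest value possible with 3 heads a group. With each head left out in turn the difference ran from -0.38 to -0.29.

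Snora73a and Snora73b, the U17 RNAs of early ribosomal RNA cleavage, were lower together. They lie in the same noncoding host, Snhg3, and are close copies, so their probe sets are not separate measurements. Snora73a read 9.42, 9.56 and 9.34 in WT and 9.26, 9.37 and 9.001 in KO heads. Snora73b read 9.09, 9.29 and 9.19 in WT and 8.93, 9.17 and 8.74 in KO heads. In both, KO 3 was the lowest head, and KO 2 lay above 1 of the WT heads, so the groups overlapped. The differences were -0.23 (SE 0.09) and -0.24 (SE 0.10), 0.851 and 0.845 times the WT signal (limma, adjusted p = 0.791 and 0.792; p = 0.2 for each by exact two-sided permutation). Without KO 3 they were -0.13 and -0.14, and without WT 2 -0.17 and -0.19.

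On the higher side stood Snora23, an H/ACA box RNA in an intron of the importin gene Ipo7. It read 11.03, 11.22 and 11.17 in WT and 11.30, 11.31 and 11.42 in KO heads, with no overlap. WT heads averaged 11.14 ± 0.10 and KO heads 11.34 ± 0.07 (SD, n = 3 each), which gave a difference of 0.21 (SE 0.06), or 1.15 times (limma, unadjusted p 0.0048, adjusted p = 0.593; p = 0.1 by exact two-sided permutation). With each head left out it ran from 0.15 (without WT 1) to 0.25 (without WT 2).

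Snora20, in the chaperonin gene Tcp1, read 7.49, 7.61 and 7.63 in WT and 7.91, 7.82 and 7.67 in KO heads. The groups did not overlap, but KO 3 lay only just above WT 3. The difference was 0.22 (SE 0.08), 1.17 times (limma, adjusted p = 0.763). The third was a probe set of Snord58b, a C/D box RNA in the ribosomal protein gene Rpl17. It read 5.71, 6.24 and 6.09 in WT and 6.26, 6.38 and 6.31 in KO heads, a difference of 0.30 (SE 0.12; limma, adjusted p = 0.791). WT 1 was far lower than the other heads, and without it the difference was 0.15. A second probe set of Snord58b gave 0.26, with the groups just overlapping (limma, unadjusted p 0.054). Both probe sets of Snord58b were dimmer than the brightness cut.

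**Figure D2:**
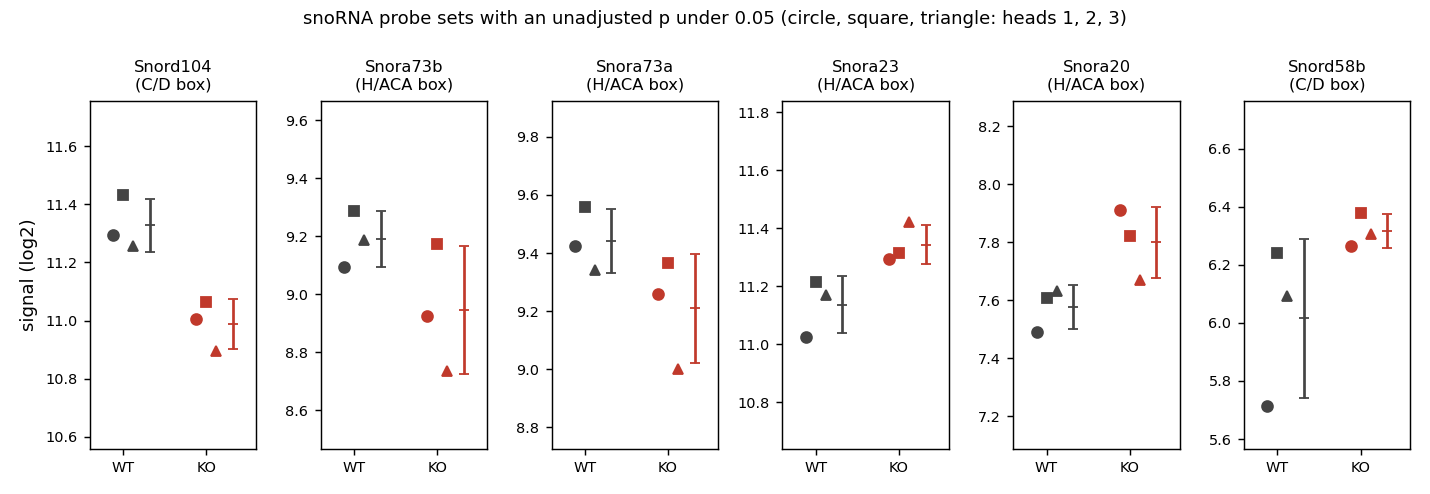
Log2 signal (vertical axis, 1.2 units high in each panel) of the 6 snoRNA probe sets with an unadjusted p under 0.05, in WT (grey) and KO (red) heads; circles, squares and triangles are heads 1, 2 and 3, and the bar beside them is the mean with its SD (n = 3). The groups do not overlap for Snord104, Snora23, Snora20 and this probe set of Snord58b, and do for Snora73a and Snora73b.

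The 5 brightest probe sets of each class, by the mean over all heads, include Snord104 and Snora23, described above; the other 8 overlapped between the groups. Signals of different probe sets depend on their probes and are not set against each other as amounts. Of the C/D box class these were Snord104, Snord49b, Snord82, Snord57 and Snord14e. Snord49b, in the noncoding gene 2410006H16Rik, differed by -0.15 (SE 0.10). Snord82, in the nucleolin gene Ncl, differed by -0.14 (SE 0.10), with WT 1 the brightest head at 11.26 and KO 2 the dimmest at 10.76. Snord57 read 10.69, 11.27 and 10.84 in WT and 10.88, 10.49 and 10.79 in KO heads, a difference of -0.22 (SE 0.14), with the groups overlapping. Snord14e, of the U14 family needed for small subunit ribosomal RNA and hosted by the chaperone gene Hspa8, differed by 0.16 (SE 0.14). Their limma adjusted p-values, Snord104 aside, ran from 0.874 to 0.905.

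In the H/ACA class the brightest were Snora52, Snora23, Snora7a and both probe sets of Snora3. Snora52, in the ribosomal protein gene Rplp2, read 12.47, 12.76 and 12.60 in WT and 12.63, 12.60 and 12.47 in KO heads. Its difference was -0.04 (SE 0.07), with a ratio between 0.87 and 1.08 (95% confidence interval). Snora7a, in Rpl32, differed by -0.10 (SE 0.06). The probe sets of Snora3, in Rpl27a, differed by 0.16 each (SE 0.08), with WT 1 the lowest head in both, 9.69 and 9.71. Snora23 aside, limma adjusted p-values ran from 0.829 to 0.948.

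Taken by class, 19 of 33 C/D box probe sets were lower in KO heads (57.6%, median difference -0.01) and 8 of 23 H/ACA box probe sets (34.8%, median 0.04), where 56.3% of all probe sets were lower. Per head, the median C/D box signal minus the median H/ACA box signal was 0.27, -0.22 and -0.21 in WT and -0.24, -0.06 and -0.22 in KO heads. WT 1 alone had a positive value, KO 2 was the next highest, and the other 4 heads, from both genotypes, lay close together. WT heads averaged -0.05 ± 0.28 and KO heads -0.18 ± 0.10 (SD, n = 3 each). These differ by -0.13, and without WT 1 the difference was 0.04. The sign of the class contrast thus changed with that head. The contrast was -0.03 over members above the brightness cut and 0.02 with probe sets of several symbols added.

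The members varied between heads of the same genotype. Each probe set was set against its own mean over the 6 heads, and the median of these deviations was taken per class. For the C/D box it was -0.03, -0.02 and 0.08 in WT and 0.0060, 0.08 and -0.09 in KO heads. For the H/ACA box it was -0.19, 0.10 and 0.06 in WT and 0.04, 0.11 and -0.08 in KO heads. KO 2 was thus high and KO 3 low in both classes, a gap within the KO group that was larger than the difference between the groups (-0.0065 for C/D box and 0.04 for H/ACA box). The median deviation of all probe sets stayed between -0.0092 and 0.01.

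The same heads stood out by count. KO 2 was the highest head for 18 of 56 members (32.1%, against 15.8% of all probe sets) and WT 2 for 16 (28.6%, against 16.2%). WT 1 was the lowest head for 19 (33.9%, against 19.8%) and KO 3 for 16 (28.6%, against 18.8%). WT 3 was the lowest head for 1 member (1.79%, against 13.9%), and WT 1 the highest for 3 (5.36%, against 26.5%). Members share hosts and close copies, so these counts are not of separate measurements. What part the standing apart of WT 1 on all probe sets has in these shifts was not tested.

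**Figure D3:**
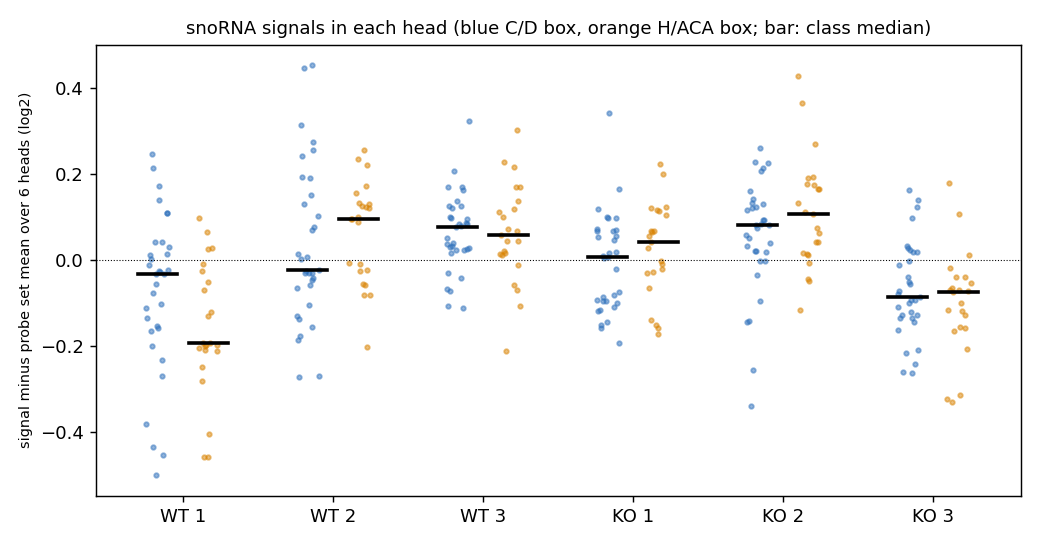
Deviation of each snoRNA probe set from its mean over the 6 heads (log2, vertical axis) in each head (horizontal axis), C/D box in blue and H/ACA box in orange, with black bars at the class medians. The H/ACA median is lowest in WT 1, at -0.19, and both classes are high in KO 2 (0.08 and 0.11) and low in KO 3 (-0.09 and -0.08).

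Host genes were compared with their snoRNAs. Of the 40 hosts, 23 had a probe set with a single symbol, which gave 27 pairs of a snoRNA and its host. Each host was read by its brightest probe set. Some hosts had several such probe sets, among them Rps12 (14), Rpl23a (13) and Tpt1 (4), while Rbmx had 1. Differences of the probe sets not chosen are not given here. The hosts had a median difference of -0.03 (0.0014 after quantile normalization), 14 lower and 9 higher, and 0 passed in limma. At an unadjusted p under 0.05, 3 of the 23 were lower and 0 higher, where 3.89% and 2.32% of all probe sets were. The 3 lower hosts were the translationally controlled protein gene Tpt1 (-0.16, SE 0.04), the RNA-binding protein gene Rbmx (-0.18, SE 0.05) and Rps12 (-0.17, SE 0.07). The snoRNAs inside them, Snora31, Snord61 and Snora33, differed by 0.03, 0.03 and 0.06. Conversely, Ipo7 and Tcp1, hosts of the higher Snora23 and Snora20, differed by 0.02 (SE 0.05) and 0.0032 (SE 0.05).

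Over the 27 pairs the snoRNA and its host had the same sign in 12, and in 7 without KO 1. Across pairs Pearson's r between the differences was -0.25 and Spearman's rho -0.26, given as a description, since the pairs share the 6 arrays and some share a host. With single heads left out r lay between -0.31 and -0.04. For the 5 pairs in which the snoRNA or its host had an unadjusted p under 0.05, the snoRNA minus host signal was taken per head as a description; that choice fixes in large part that it differs, so no test is given. For Snord61 against Rbmx it was -4.30, -4.26 and -4.19 in WT and -4.07, -4.06 and -4.01 in KO heads, a difference of 0.21 with no overlap, of which Rbmx gave -0.18 and Snord61, dimmer than the brightness cut at a mean of 6.77, gave 0.03. The other 4 pairs differed by 0.19 to 0.23 with overlapping groups.

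**Figure D4:**
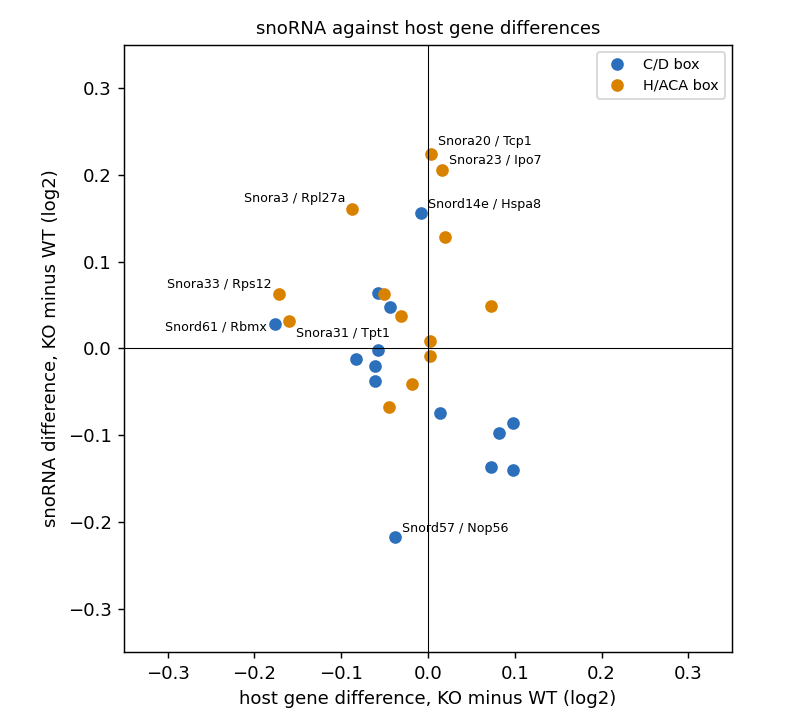
KO minus WT difference of each snoRNA (vertical axis, log2) against that of its host gene (horizontal axis, log2) for 27 pairs, C/D box in blue and H/ACA box in orange. Snora20 and Snora23 lie high over hosts near zero, Snord61, Snora31 and Snora33 lie near zero beside hosts between -0.18 and -0.16, and 12 of the 27 pairs share a sign.

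snoRNAs of the same host were compared with each other, and 10 hosts held 2 members each. In 7 of these the members had the same sign, and the median gap between their differences was 0.09. The closest were Snora73a and Snora73b, and Snord95 (0.11) and Snord96a (0.12) in the ribosomal scaffold gene Rack1. The widest gap, 0.22, was in the noncoding gene Snhg12, where Snora16a differed by 0.10 and Snora44 by -0.12. In Ncl the H/ACA RNA Snora75 differed by 0.05 and the C/D RNA Snord82 by -0.14. By kind of host, 9 of 13 probe sets in noncoding hosts were lower (median -0.05), and 16 of 41 in protein-coding hosts (median 0.04). Of all probe sets, 56.3% were lower. The 3 members lower at an unadjusted p under 0.05 all lay in noncoding hosts and the 3 higher ones in protein-coding hosts. Snora73a and Snora73b, 2 of the lower ones, are not separate measurements. Outside the rule the split did not hold. Among 17 snoRNA probe sets with several symbols, described below, 2 were lower and 3 higher in limma at that threshold. The 2 lower ones carry the protein-coding gene Rpl13a (-0.25 and -0.27). The split among members was seen after the fact and was not tested.

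Brightness bore on what could be read. Of the 56 members, 46 had a mean above 7.06, the signal below which the dimmest 40% of all probe sets lay, and 10 did not, 8 of them C/D box. Among the 10 were both probe sets of Snord118 (U8), at 6.50 ± 0.09 in WT and 6.37 ± 0.08 in KO heads (SD, n = 3 each), and those of Snord58b. The files give no detection call, so whether a dim probe set measured its RNA is not known here. The 2 probe sets of Snord118 held identical values, as did the 2 of Snora30, and each pair is 1 measurement.

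A further 41 probe sets carried a Snord or Snora symbol together with another gene's and were outside the rule. Of these, 24 belonged to copies of Snord116, a brain snoRNA of the imprinted Prader-Willi region, but they held only 7 different sets of values, 18 being identical. All had a higher mean in KO heads, by 0.13 to 0.24 (median 0.16, median SE 0.15). Of these, 0 had an unadjusted p under 0.05 (limma, lowest adjusted p 0.876). The 18 identical ones read 10.14, 10.18 and 9.79 in WT and 10.57, 10.06 and 9.94 in KO heads. The groups thus overlapped, and only KO 1 lay above every WT head. The remaining 17 included the other C/D RNAs of the ribosomal protein gene Rpl13a, whose intronic RNAs are known as mediators of metabolic stress.

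The Rpl13a group was picked out after its values were seen. Its members by the rule, Snord33 and Snord35a, differed by -0.11 (SE 0.12) and -0.25 (SE 0.13). The probe set annotated to Snord34 and Rpl13a read 9.31, 9.22 and 9.24 in WT and 8.91, 8.98 and 9.12 in KO heads, without overlap, a difference of -0.25 (SE 0.07; limma, adjusted p = 0.554). That of Snord32a and Rpl13a read 10.55, 11.12 and 10.77 in WT and 10.56, 10.49 and 10.57 in KO heads, a difference of -0.27 (SE 0.11; adjusted p = 0.796), with WT 1 among the KO heads. All 4 were lower and 0 passed, and for the latter pair snoRNA and Rpl13a transcript cannot be told apart. Snora28 with Eif5 (0.25, SE 0.07) and 2 identical probe sets of Snora19 with microRNA names (0.30, SE 0.09) were higher without overlap (limma, adjusted p = 0.616 and 0.691).

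Among genes for the proteins of the particles, none passed. Of 27 genes listed for snoRNP cores, assembly and snoRNA processing, 26 were measured (median 0.03, 15 higher and 11 lower), and 0 passed in limma. At an unadjusted p under 0.05, 3 were higher and 0 lower, where 2.32% and 3.89% of all probe sets were. The 4 C/D core genes ran from -0.04 for Nop56 to 0.07 for the methyltransferase gene Fbl, and the 4 H/ACA core genes from -0.03 for Nop10 to 0.02 for Gar1. Dkc1, which encodes the pseudouridine synthase dyskerin, differed by -0.03 (SE 0.06). The 3 higher genes encode assembly factors: Naf1 (0.20, SE 0.07) and Shq1 (0.32, SE 0.14), which escort dyskerin and the H/ACA particle, and Nufip1 (0.16, SE 0.06), which brings C/D core proteins together. Their limma adjusted p-values were 0.734, 0.794 and 0.791.

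Shq1 varied widely among WT heads (8.58 ± 0.34 in WT and 8.90 ± 0.10 in KO heads, SD, n = 3 each), and only Nufip1 had every KO head above every WT head. Of 35 genes of ribosome biogenesis, which include RNA polymerase I subunits and small subunit processing factors, 34 were measured. Their median was 0.0029, 21 higher and 13 lower, and 0 passed in limma, with 0 at an unadjusted p under 0.05. The largest differences were Imp3, of the U3 snoRNP (-0.13, SE 0.06), and Utp15 (0.10, SE 0.08).

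Other small RNAs on the array gave a backdrop. Of 305 microRNA probe sets, 0 passed in limma (median difference -0.01). At an unadjusted p under 0.05, 22 were lower (7.21%) and 5 higher (1.64%), where 3.89% and 2.32% of all probe sets were. The 4 probe sets of small Cajal body RNAs, which guide marks on spliceosomal RNA, were all higher, with a median of 0.10 and 0 at an unadjusted p under 0.05. Both probe sets of Scarna17 gave the same difference, SE and mean signal, so they are not counted as separate measurements. Of 7 probe sets named Rnu or Rn, 6 were lower (median -0.13), among them the dim probe set of Rnu6 (mean signal 3.16; difference -0.19, SE 0.05; limma, adjusted p = 0.593), while Rnu3a, the U3 RNA of ribosomal RNA processing, differed by -0.03 (SE 0.08). No test was made between these lists and the members.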

How the data were processed

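The deposited table holds log2 signals for 35556 probe sets in 6 heads. Affymetrix Expression Console and MAS5 are named in the submitters' processing notes, with no role. The sources used here do not say how the authors made the deposited log2 values; array medians lay between 7.35 and 7.45, and the values were used unscaled. Symbols came from the platform annotation (21789 probe sets with 1 symbol, 1621 with several, 12146 not listed there and unnamed here). Probe sets with 1 symbol were fitted without a filter in limma 3.58.1 (R 4.3.3, lmFit, eBayes with trend, two-sided, Benjamini-Hochberg). The procedure was tested on simulated data with independent noise for each probe set and head. Such data hold no shifts shared by many probe sets of a head, so that test does not cover them.

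Members and lists were chosen with earlier results of these data known. The naming rule took up to 10 members each way by smallest p, none above an unadjusted p of 0.05, the 5 brightest per class, their hosts and the core protein genes. A host is the shortest gene whose span contains the snoRNA; strand, which the rule fixed for hosts asked for, is not in that table. Per gene the brightest probe set was used. All 51 snoRNA genes matched the table; sequences come from RefSeq, GRCm38.p6. The listed name Nhp2l1 is an older one for Snu13 and was counted once. The figures used matplotlib 3.10.9. The number of arrays limits the precision. Alternatives covered scaling, an added constant, filters, the probe sets fitted or counted, trend, the replicate block and each head left out.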

Additional observations from a re-analysis of the deposited data

How the results depend on the processing

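In limma, 0 members passed an adjusted p of 0.05 under each of 11 alternatives and with each head left out. The differences of the 6 members named for small p kept their sign wherever they were fitted. The brightness filter and the use of 1 probe set per symbol each drop the named probe set of Snord58b. These settings reuse the same heads, so a kept sign is not separate support. Snord104 had adjusted p-values from 0.158 to 0.68 in limma. Members lower at an unadjusted p under 0.05 numbered 1 when all probe sets of the table were fitted and 5 with several-symbol probe sets added, and 2 to 9 with single heads left out. Members higher numbered 5 with quantile normalization, 6 with median centring and 6 with several-symbol probe sets, and 1 to 10 with single heads left out. Members below without overlap numbered 3 with quantile normalization, 2 with several-symbol probe sets, and 2 to 9 with heads left out. Those above numbered 5 with quantile normalization, 5 with median centring, 6 with several-symbol probe sets, and 3 to 9 with heads left out. Beyond the main setting, shares of all probe sets were computed only with heads left out. Counts under the other settings, the replicate block included, are therefore not read as a result about the members. The C/D box median was 0.12 with several-symbol probe sets, most of them Snord116, and otherwise between -0.06 and 0.01. The causes were not tested. With heads left out, the H/ACA box median ran from -0.08 to 0.07 and the class contrast from -0.21 to 0.04. Repeats for the lists of particle, biogenesis and host genes were chosen after seeing the data. No member is a Snord113 to Snord116 copy. Deviations from the group means did not pair heads by number (correlations -0.14, -0.14 and -0.29). With the replicate block 0 members passed in limma, and 4 were lower and 4 higher at an unadjusted p under 0.05.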
